A study of Schizosaccharomyces pombe with 2 samples.

Results

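Divergent long non-coding RNAs (lncRNAs) are transcripts that start close to the start of a protein-coding gene and run away from it on the opposite strand, so that both transcripts leave the same promoter region. Among the annotated non-coding features of fission yeast (Schizosaccharomyces pombe) whose identifiers have the form SPNCRNA.n, a divergent lncRNA was taken as one that overlaps no coding gene on either strand and whose 5′ end lies within 500 nt upstream of the 5′ end of a coding gene on the other strand. The rule used positions only and no measured value. It found 620 features, from which SPNCRNA.82 was left out by name, leaving 619 of the 12684 annotated features and of the 7213 SPNCRNA features. They stood next to 613 coding genes, of which 6 had 2 of these lncRNAs each. The identifiers of the lncRNAs matched RefSeq (assembly ASM294v3) for 614, and these had the same coordinates there. RefSeq classes 596 as lncRNA, 16 as another ncRNA and 2 as snoRNA, and 5 had no match.

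The data comprised direct RNA sequencing of total RNA from a single group, vegetative haploid h- cells labelled wild type, with n = 2 biological replicates. Both cultures carried leu1-32, a leucine auxotrophy, and pat1-L95G::kanR, an allele of the Pat1 kinase gene that an ATP analogue can inhibit, and were grown in EMM minimal medium at 30 °C for 2 days. The allele was present in each library, so nothing here compares it with an unmodified strain, and with 1 group no condition was compared. Replicate 1 held 12871729 counts over all features and replicate 2 held 12579850. Markers of h- cells were present (mfm1, a mating pheromone gene, had 4405 and 4270 reads), and of the genes specific to h+ cells, map2 (pheromone) had 2 and 0, map3 (receptor) 9 and 14, and map1 (transcription factor) 49 and 44. The meiotic genes mei4, spo5, rec8 and mde10 had between 6 and 94 reads in a library.

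Eukaryotic promoters often lack a strict direction, and RNA polymerase II that starts on the side away from the gene makes a divergent transcript. In yeasts many such transcripts are terminated early and degraded in the nucleus by the exosome, so that they are hard to see in cells with intact RNA decay. Because RNA was polyadenylated in vitro before sequencing, RNAs without a natural poly(A) tail could also be captured. Each nanopore read starts at the 3′ end of an RNA molecule and may stop before its 5′ end.

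The regions between the 5′ ends of some of these pairs are given first, because they are what a lncRNA and its gene have in common. All are read 5′ to 3′ on the strand of the gene (ASM294v3), so that base 1 adjoins the first base of the lncRNA and the last base adjoins the first base of the gene. SPNCRNA.942 with ppc89 and SPNCRNA.5756 with prp1 are pairs with an abundant lncRNA, SPNCRNA.941 with pyk1 and SPNCRNA.1624 with rps1801 are pairs with an abundant gene, and SPNCRNA.491 with ctp1, SPNCRNA.58 with itr2, SPNCRNA.3099 with cpc2 and SPNCRNA.993 with mei2 are shown for the short window or for the motif they hold. Capitals mark TATAAA, the forkhead site GTAAACA and the HomolD box CAGTCACA on either strand, so that a motif on the lncRNA strand appears as its reverse complement. The MCB site ACGCGT and the CRE core ATGACGT were searched in the same way and are in none of them.
SPNCRNA.942 with ppc89, 283 bases, chrI:3850741-3851023, minus strand: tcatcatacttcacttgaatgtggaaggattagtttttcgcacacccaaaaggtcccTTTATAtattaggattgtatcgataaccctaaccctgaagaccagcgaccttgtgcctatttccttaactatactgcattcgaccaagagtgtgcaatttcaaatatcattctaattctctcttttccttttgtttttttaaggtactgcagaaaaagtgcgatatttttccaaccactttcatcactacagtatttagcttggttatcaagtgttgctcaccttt
SPNCRNA.5756 with prp1, 201 bases, chrII:2641720-2641920, plus strand: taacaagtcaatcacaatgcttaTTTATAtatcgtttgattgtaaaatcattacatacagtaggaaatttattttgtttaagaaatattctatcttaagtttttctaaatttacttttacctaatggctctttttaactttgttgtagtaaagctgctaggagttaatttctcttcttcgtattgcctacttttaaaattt
SPNCRNA.941 with pyk1, 72 bases, chrI:3846676-3846747, minus strand: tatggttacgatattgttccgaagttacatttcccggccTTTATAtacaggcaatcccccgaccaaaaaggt
SPNCRNA.1624 with rps1801, 114 bases, chrII:3620464-3620577, minus strand: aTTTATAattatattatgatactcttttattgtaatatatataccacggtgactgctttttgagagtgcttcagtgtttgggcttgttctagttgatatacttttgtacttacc
SPNCRNA.491 with ctp1, 90 bases, chrIII:1360233-1360322, minus strand: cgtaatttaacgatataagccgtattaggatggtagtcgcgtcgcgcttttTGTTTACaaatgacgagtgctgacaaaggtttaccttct
SPNCRNA.58 with itr2, 76 bases, chrI:1393529-1393604, plus strand: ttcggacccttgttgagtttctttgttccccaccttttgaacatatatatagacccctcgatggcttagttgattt
SPNCRNA.3099 with cpc2, 116 bases, chrI:2439395-2439510, plus strand: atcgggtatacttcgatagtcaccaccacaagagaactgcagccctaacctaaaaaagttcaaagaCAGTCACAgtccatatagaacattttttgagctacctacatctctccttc
SPNCRNA.993 with mei2, 156 bases, chrI:4515026-4515181, minus strand: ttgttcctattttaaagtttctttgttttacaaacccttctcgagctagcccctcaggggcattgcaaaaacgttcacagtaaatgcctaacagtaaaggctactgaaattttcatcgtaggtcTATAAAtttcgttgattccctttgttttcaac

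Read on the lncRNA strand, TATAAA lay at bases 58 to 63 between SPNCRNA.942 and ppc89, at bases 24 to 29 between SPNCRNA.5756 and prp1, at bases 40 to 45 between SPNCRNA.941 and pyk1 and at bases 2 to 7 between SPNCRNA.1624 and rps1801. At mei2 it lay on the gene strand, at bases 125 to 130 of 156. The HomolD box, a promoter element found at many fission yeast ribosomal protein genes, lay at bases 67 to 74 of the 116 bases before cpc2, on the gene strand. The forkhead site at ctp1 was at bases 52 to 58 of 90, on the lncRNA strand. A match is a description of the letters and does not show that a factor binds there.

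Most divergent lncRNAs were detected, and most of them at a few reads. At least 1 read was found for 529 of the 619, and 90 had none in either library. Reads were present in both libraries for 395 and in 1 library only for 134. With both libraries summed, 340 lncRNAs had 1 to 9 reads, 163 had 10 to 99, and 26 had 100 or more, 5 of them at least 1000. A count of 0 in a library allows up to 3 counts, which is 0.233 CPM (counts scaled to a library total of 1000000 over all features) in replicate 1 and 0.238 CPM in replicate 2, so that a lncRNA at 0 was not detectable at this depth rather than absent. In bulk RNA, few cells with a lncRNA and little of it in every cell cannot be told apart.

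The median lncRNA had 4 reads in both libraries together and 0.158 ± 0.0025 CPM (mean over libraries, SD of the medians of n = 2 libraries). Other SPNCRNA features, of which there were 6589, had a median of 2 reads and 0.0786 CPM. The 613 genes of the pairs had a median of 292 reads and 11.5 ± 0.629 CPM. At least 10 reads were found for 189 of the divergent lncRNAs, or 30.5%, against 21.8% of the other SPNCRNA features, 96.2% of the genes of the pairs and 95.9% of the 4539 coding genes without a divergent lncRNA.

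**Figure D1:**
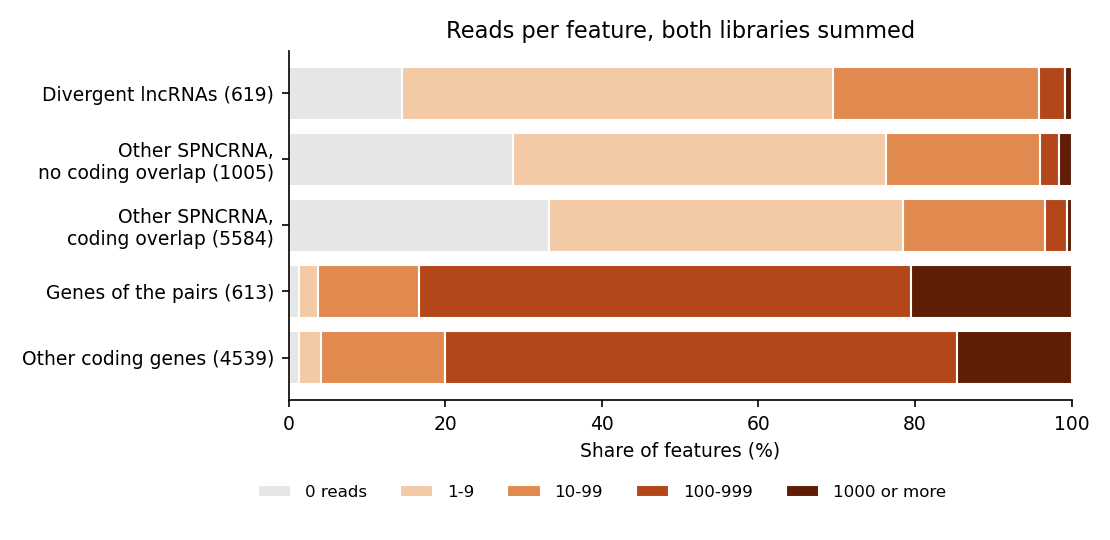
Share of features (x axis, %) in 5 classes of read number, both libraries summed, for divergent lncRNAs, the other SPNCRNA features without and with an overlapping coding gene, the genes of the pairs and the other coding genes (number of features in brackets). Features with no read made up 14.5% of the divergent lncRNAs, 28.7% and 33.3% of the other SPNCRNA sets, and 1.31% of the genes of the pairs.

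The share with at least 10 reads depended on where an identifier stands in the numbering of the annotation. Among identifiers below 2000, 130 of 217 divergent lncRNAs reached 10 reads (59.9%), against 67.6% of the 1223 other SPNCRNA features of those numbers. From 2000 upward, 59 of 402 divergent lncRNAs did (14.7%), against 11.4% of 5366. When only other SPNCRNA features that overlap no coding gene were taken, the shares of those were 50.6% below 2000 and 13.9% from 2000 upward. Divergent lncRNAs thus had the higher share overall and in both number ranges against the non-overlapping set, but the lower share below 2000 against all other SPNCRNA features. No test was made of these differences, because features of a library are not replicates of a condition.

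A few lncRNAs held most of the reads. The 619 lncRNAs together had 49995 reads in replicate 1 and 42798 in replicate 2, or 0.388% and 0.340% of all counts, and the 3 most abundant had 85.2% and 83.8% of them. SPNCRNA.901, SPNCRNA.942 and SPNCRNA.491 ranked 7, 12 and 16 by reads among 7208 SPNCRNA features, with 5 features set aside by name not counted. Among the 100 SPNCRNA features with most reads, 9 were divergent lncRNAs.

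SPNCRNA.901 (chromosome I from 3316321 to 3316601, minus strand) had 22736 and 18435 reads in replicates 1 and 2, or 1616 ± 213 CPM (SD, n = 2). Its gene, rpc17, which encodes a subunit of RNA polymerase III, had 85 and 90 reads. SPNCRNA.901 is a snoRNA feature in RefSeq, and the snoRNA feature SPSNORNA.43 on the same strand, with which it shares 136 nt, had exactly the same counts, 22736 and 18435. The same reads therefore count for both features, and SPNCRNA.901 cannot be told apart here from the small nucleolar RNA, one of a class of stable RNAs that guide rRNA modification.

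SPNCRNA.942 (chromosome I from 3851024 to 3851310, plus strand, 287 nt) had 11616 and 10081 reads, or 852 ± 71.5 CPM. Its gene, ppc89, which encodes a component of the spindle pole body, had 53 and 73 reads in the same libraries and starts 284 nt away. No other feature of its strand overlaps SPNCRNA.942, and the next coding gene downstream, on the same strand, starts 1627 nt beyond its end. Per kb of feature, the lncRNA had 2968 ± 249 CPM against 1.78 ± 0.428 CPM for the gene, a log2 ratio of 10.71 ± 0.47 (SD, n = 2), the highest of all pairs. The sequence of its span on its own strand (ASM294v3) is shown because it is the most abundant lncRNA here without a snoRNA annotation. Capitals mark the poly(A) signal AATAAA at bases 202 to 207 and TTAAAC, the core motif bound by the RNA-binding protein Mmi1, at bases 241 to 246.
SPNCRNA.942, chrI:3851024-3851310, plus strand: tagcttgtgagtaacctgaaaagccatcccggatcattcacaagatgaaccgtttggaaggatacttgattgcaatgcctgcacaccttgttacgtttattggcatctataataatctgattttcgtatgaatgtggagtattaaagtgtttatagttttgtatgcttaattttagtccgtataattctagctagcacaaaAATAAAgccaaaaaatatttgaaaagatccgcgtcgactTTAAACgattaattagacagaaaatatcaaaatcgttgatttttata

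SPNCRNA.491 (chromosome III from 1360323 to 1360746, plus strand) had 8248 and 7363 reads, or 613 ± 39.2 CPM. Its gene, ctp1, which encodes the CtIP family endonuclease of DNA break repair, had 72 and 55 reads and starts 91 nt away. SPNCRNA.491 shares 397 of its 424 nt with SPNCRNA.1189, a feature of 2073 nt on the same strand that held 8839 and 7945 reads, and a read in the shared part counts in both.

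SPNCRNA.5756 (chromosome II from 2640922 to 2641719, minus strand) had 1131 and 863 reads, or 78.2 ± 13.6 CPM. Its gene, prp1, which encodes a subunit of the U4/U6 x U5 tri-snRNP of the spliceosome, had 88 and 93 reads. It is the most abundant of the divergent lncRNAs with an identifier from 2000 upward.

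SPNCRNA.3054 (chromosome I from 2349532 to 2349738, plus strand) was the fifth, with 668 and 495 reads against 603 and 590 reads for arc5, which encodes a subunit of the actin-organizing ARP2/3 complex. The lncRNA is 207 nt and the gene 1033 nt long. It took 52.6% of the reads of the pair in replicate 1 (exact Clopper-Pearson 95% interval 49.8 to 55.3). In replicate 2 its share was 45.6% (42.6 to 48.6), and the intervals cover counting error only and did not overlap. Per kb, the log2 ratio of lncRNA to gene was 2.27 ± 0.28 (SD, n = 2). Its span on its own strand is shown with AATAAA in capitals at bases 183 to 188, near the 3′ end.
SPNCRNA.3054, chrI:2349532-2349738, plus strand: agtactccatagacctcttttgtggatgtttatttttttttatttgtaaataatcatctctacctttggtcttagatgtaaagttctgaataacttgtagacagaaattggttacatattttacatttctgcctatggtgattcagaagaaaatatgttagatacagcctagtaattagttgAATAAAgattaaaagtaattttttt

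The next lncRNAs were an order of magnitude or more below SPNCRNA.942. SPNCRNA.1490 had 528 and 394 reads and its gene rrb1, a WD repeat protein, had 265 and 304. SPNCRNA.1370 had 288 and 365 reads and its gene osh42, an oxysterol binding protein, had 506 and 467. SPNCRNA.1370 shares 42 nt with SPNCRNA.1371 on its strand, which had 288 and 366 reads, close to the same numbers. A read that touches the shared part counts in both. Nearly all reads of SPNCRNA.1370 may therefore be those of SPNCRNA.1371, and its level and its ratio to osh42 cannot be told apart from that feature here. SPNCRNA.1483 had 330 and 285 reads against 596 and 509 for gid2, a ubiquitin ligase, but contains the snoRNA snoZ30, which alone had 272 and 230, so that 58 and 55 reads lay outside it.

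The last of the 10 most abundant lncRNAs were nam3 and prl58. nam3 (SPNCRNA.1696) had 264 and 258 reads and its gene SPBPB2B2.05, a glutamine amidotransferase family protein, had 250 and 287. prl58 (SPNCRNA.58) had 136 and 119 reads and its gene itr2, a plasma membrane transporter of myo-inositol, had 1340 and 1286. Per kb, 7 of these 10 lncRNAs lay above their gene in both libraries and 3 below.

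**Figure D2:**
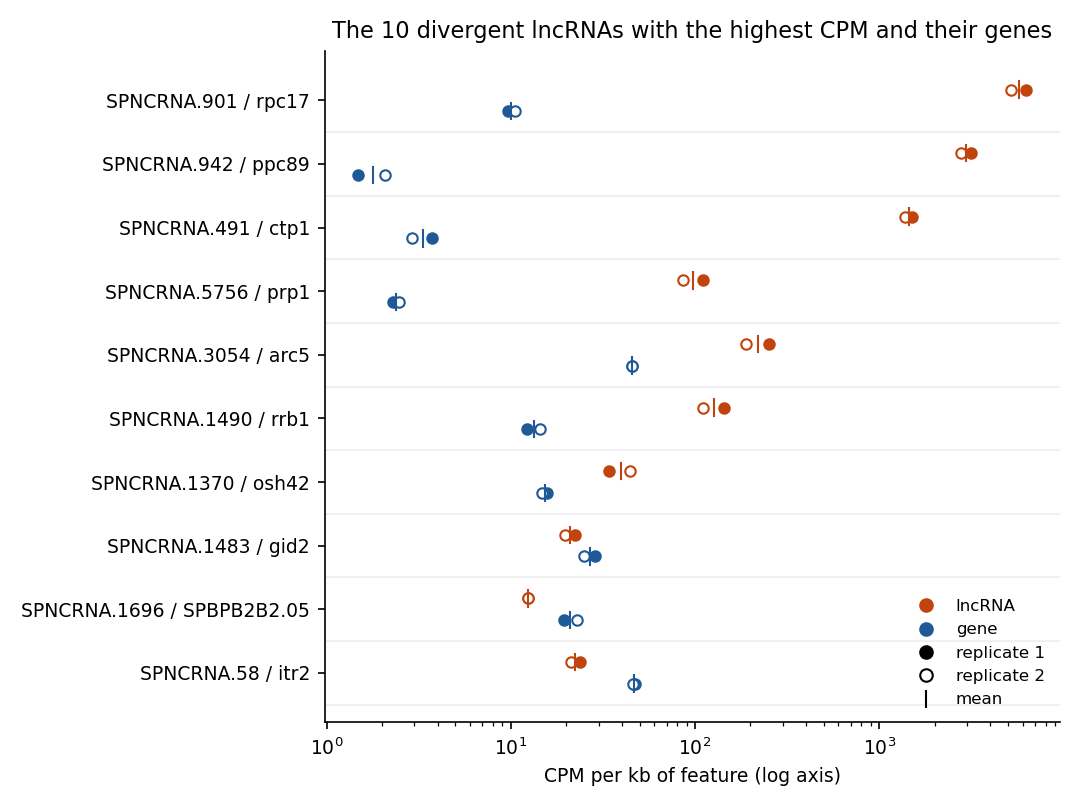
CPM per kb of feature (x axis, log scale) for the 10 divergent lncRNAs with the highest CPM and for their genes, with filled points for replicate 1, open points for replicate 2 and a tick at the mean. The lncRNA lies to the right of its gene in the upper 7 pairs, by up to a log2 ratio of 10.71, and to the left in the lower 3.

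Across all pairs, the lncRNA lay below its gene. Levels of the lncRNA and the gene were compared as reads per kb within a library, so that depth cancels. The lncRNA had fewer reads per kb than the gene in both libraries in 567 of 619 pairs (91.6%), more in both in 28 (4.52%), and neither in 24, of which 5 had no read in either feature. The median log2 ratio of lncRNA to gene, with 0.5 added to each count, was -3.81 in each library, which corresponds to a 14.0-fold higher gene. With the 90 lncRNAs at 0 reads set to their limit of 3 counts in each library, the median was -3.47. The lower and upper quartiles were -5.47 and -2.31.

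Where both features had at least 10 reads, the lncRNA was still below in 160 of 188 pairs and above in 20, with a median log2 ratio of -2.54. Among the 529 lncRNAs with a read, the gene was at least 10-fold higher in 292 pairs and at least 100-fold in 61, and both lay within 2-fold in 53. Of the 90 lncRNAs at 0, 30 had a gene at least 10-fold above their limit of 3 counts per library, and 5 at least 100-fold. Reads per kb understate a long feature if reads stop short of its 5′ end, and the lncRNAs were shorter (median 474 nt) than the genes of the pairs (median 1878 nt). Without division by length the lncRNA had fewer reads in both libraries in 589 of 619 pairs.

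**Figure D3:**
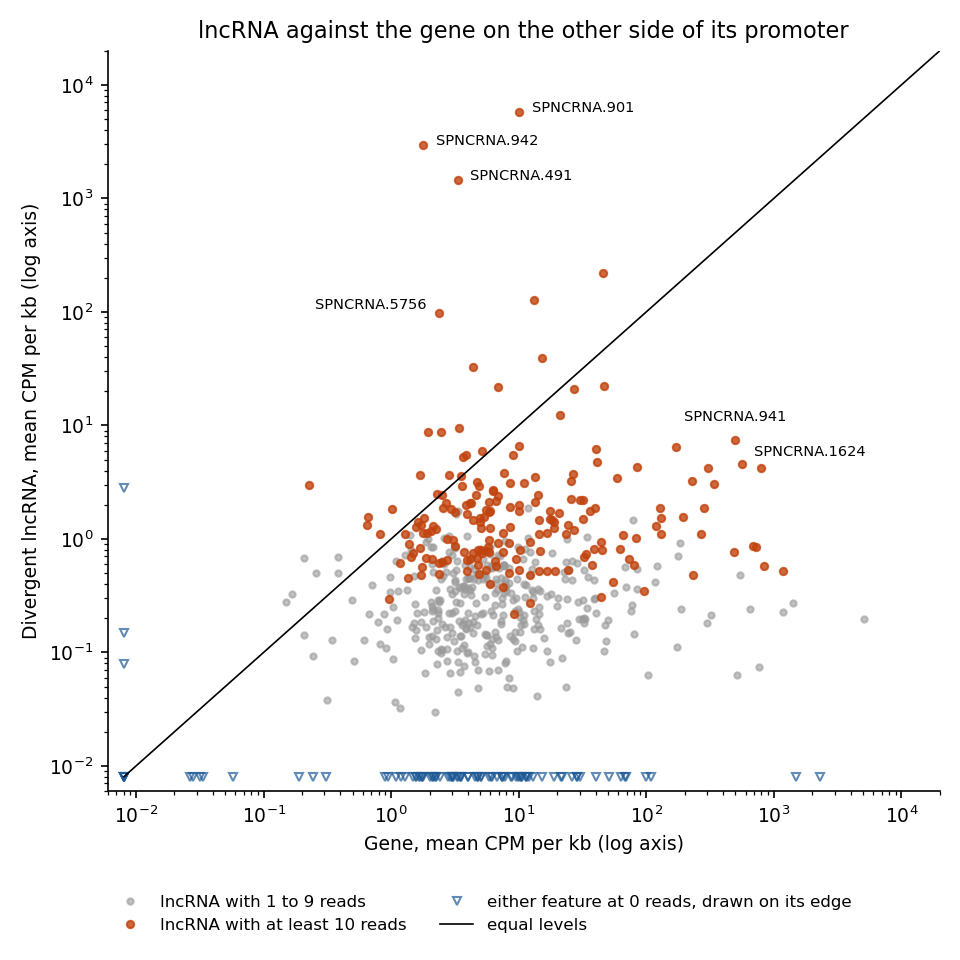
Mean CPM per kb of the divergent lncRNA (y axis) against that of its gene (x axis), both on log scales, 1 point a pair; triangles on an edge are pairs with a feature at 0 reads. Most points lie below the line of equal levels (567 of 619 pairs in both libraries), while SPNCRNA.901, SPNCRNA.942 and SPNCRNA.491 lie far above it.

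Of the 28 pairs with the lncRNA above the gene in both libraries, 12 had at least 100 lncRNA reads, 9 had 10 to 99 and 7 had fewer than 10. In 12 of the 28 the lncRNA was the higher one per kb only, with fewer reads than the gene in both libraries when length was not divided out; osh42, imt3, lsk1, dnm1 and SPAC6F6.04c are among these. Besides those already named, the first set held imt3, a mannosyltransferase gene, whose lncRNA prl59 (SPNCRNA.817) had 120 and 128 reads against 178 and 183, a log2 ratio per kb of 1.67 ± 0.04. It also held csi1, a gene of a centromere-clustering protein, whose lncRNA SPNCRNA.1600 had 75 and 103 reads against 62 and 62. Another was gid4, a gene of the Vid24 family. Its lncRNA sno530 (SPNCRNA.530), which holds or overlaps a snoRNA, had 77 and 51 reads against 60 and 69. These 3 pairs were chosen after their values were seen. In the 7 pairs where the lncRNA had fewer than 10 reads, the gene did as well. One of them was bqt1, a meiotic bouquet protein gene, with 1 and 3 lncRNA reads against 1 and 5 gene reads, and no order can be read at such counts.

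At most strongly expressed genes, the lncRNA was a small share of the reads of the pair. Genes with at least 1000 reads in sum stood in 127 pairs, in which 70 lncRNAs had fewer than 10 reads, 13 of them none, and 9 had 100 or more. Of all 619 lncRNAs, 430 had fewer than 10 reads, 90 of them none, and 26 had 100 or more. The median was 7 lncRNA reads in the 127 pairs and 4 over all 619, so the lncRNAs at these genes were not scarcer than elsewhere. The share of the pair also counts the reads of the gene. The lncRNA held under 1% of the reads of the pair in both libraries in 97 of the 127, and the median share was 0.265% in replicate 1 and 0.263% in replicate 2. The exceptions above 10% were SPNCRNA.3054 at arc5, described above, and SPNCRNA.1483 at gid2, with 35.6% and 35.9%, most of it the reads of snoZ30. pyk1, the pyruvate kinase gene of glycolysis, is an example chosen after the values were seen. Its lncRNA SPNCRNA.941 had 97 and 96 reads against 12293 and 12261, so its share of the pair was 0.783% in replicate 1 (0.635 to 0.954, exact 95% interval). In replicate 2 it was 0.777% (0.630 to 0.948). The intervals overlap, and the log2 ratio per kb was -6.06 ± 0.01. At mei2, the gene of the RNA-binding protein that drives meiosis, also chosen after its values were seen, SPNCRNA.993 had 25 and 25 reads against 755 and 707, or 3.21% (2.08 to 4.70) and 3.42% (2.22 to 5.001) of the pair.

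lncRNAs reached 10 reads more often at genes with more reads. The share of lncRNAs with at least 10 reads was 4.17% of 24 pairs whose gene had 0 to 9 reads, 21.3% of 80 with 10 to 99, 29.4% of 388 with 100 or more but under 1000, and 44.9% of 127 with 1000 or more (Wilson 95% intervals 0.739 to 20.2, 13.7 to 31.4, 25.1 to 34.1 and 36.5 to 53.6). Spearman's rho of the 2 levels per kb, with 0.5 added to each count, was 0.172 over 619 pairs. It was 0.069 over the 188 pairs with at least 10 reads in each feature. Without that addition rho was 0.162 and 0.060. All points share the same libraries, 12 lncRNAs share a gene with another and counts are low, so the coefficient is a description and in sparse counts of this size not a finding.

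Groups of genes by product description were then compared. The lists differ in size. Of all 5152 coding genes, 11.9% had a divergent lncRNA. The shares were 20.2% of 178 transporter genes, 14.9% of 94 kinase, 14.7% of 75 chaperone and 11.7% of 120 transcription factor genes. They were 9.43% of 53 translation factor, 9.15% of 142 ribosomal protein and 9.09% of 11 histone genes. Lower shares were 8.11% of 37 RNA helicase, 7.58% of 132 ubiquitin pathway and 5.71% of 35 aminoacyl-tRNA ligase genes. Ribosomal protein genes stood in 13 pairs, and the lncRNA was below the gene in both libraries in all 13, against 567 of 619 over all pairs. Their median log2 ratio per kb was -12.15, or -11.46 with lncRNAs at 0 set to their limit, beside -3.81 and -3.47 over all pairs. The genes had a median of 16435 reads, beside 292 over the 613 genes of all pairs. The lncRNAs had a median of 4 reads, the same as over all 619, and 5 of the 13 reached 10 reads (30.5% over all 619). SPNCRNA.1624 was the most abundant, with 105 and 109 reads against 5093 and 4696 for rps1801, which encodes protein uS13 of the small subunit. SPNCRNA.3099, beside cpc2, the gene of the ribosome-associated protein RACK1, had 17 and 26 reads against 5916 and 5845. No read was found for SPNCRNA.3449 beside ubi3, a fusion of ubiquitin and a small subunit protein with 13823 and 15619 reads, so that the lncRNA was at least 6248-fold lower per kb. Likewise SPNCRNA.6883 had none beside rpl3601, with 10608 and 9997 reads, and was at least 2728-fold lower; both limits rest on 3 counts per library.

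The other lncRNAs at ribosomal protein genes had 12 or fewer reads in a library. SPNCRNA.267, beside rpl4101, had 2 and 0 reads against 25604 and 26003, SPNCRNA.5464, beside rpl8, had 7 and 2 against 17692 and 16940, and SPNCRNA.3829, beside rpl1602, had 1 and 0 against 7776 and 7649. These 3 with ubi3 and rpl3601 were the 5 lowest ratios of all pairs with at least 100 reads. Between them lay rps101 (10 and 8 lncRNA reads), rps2202 (12 and 6), rpl2501 (5 and 5), rps1702 and rpl402 (1 and 3 each) and rps502 (1 and 0).

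Genes of translation factors stood in 5 pairs, all with the lncRNA below, at a median log2 ratio of -6.64. SPNCRNA.209 had 6 and 5 reads beside eft201, a translation elongation factor 2 gene with 2329 and 2535, and SPNCRNA.7462 had 6 and 3 beside tef3, the eEF3 gene with 7848 and 7494. Aminoacyl-tRNA ligases stood in 2 pairs, both below (qrs1 with SPNCRNA.6488 and SPBC24C6.03 with SPNCRNA.5599), and the lncRNAs had at most 5 reads.

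Transporter genes formed the largest group, with 36 pairs. The lncRNA was below in 33 and above in 2, and the median log2 ratio was -3.55. prl58 at itr2 was the most abundant, followed by SPNCRNA.848 beside SPAC6F6.04c, with 58 and 54 reads against 67 and 57, a ratio of 0.11 ± 0.09. At pho84, an inorganic phosphate transporter gene, SPNCRNA.6615 had 7 and 5 reads against 6189 and 6264. The other pair above its gene was SPBPB2B2.16c, listed at 0 in both libraries, beside SPNCRNA.448 with 1 and 2 reads, and allows no order.

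Genes whose product names a protein kinase, inhibitors of kinases included, stood in 14 pairs, of which 13 were below and 1 above, at a median of -2.72. The pair above was lsk1, a cyclin-dependent kinase that acts on RNA polymerase II, whose lncRNA SPNCRNA.3766 had 41 and 35 reads against 94 and 97, a log2 ratio per kb of 1.86 ± 0.19. wee1, the inhibitor of mitotic entry, had a lncRNA, SPNCRNA.1154, with 2 and 2 reads against 97 and 97. Transcription factor genes stood in 14 pairs, all below, at -3.23, with SPNCRNA.672 at rad15, a TFIIH subunit, the most abundant at 41 and 44 reads against 126 and 132.

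Genes whose product names a heat shock protein or a chaperone, histone chaperones included, stood in 11 pairs. Of these, 9 were below and none above in both libraries, at -2.91. SPNCRNA.1111 at pmp20, a thioredoxin-related chaperone, had 43 and 57 reads against 8287 and 7450, whereas SPNCRNA.1402 at swc2, a Swr1 complex subunit, had 19 and 23 against 34 and 23. Ubiquitin pathway genes stood in 10 pairs and RNA helicases in 3, all below, at -3.79 and -3.21; with lncRNAs at 0 set to their limit the medians were -2.48 and -2.79. The single histone gene was pht1, the H2A.Z gene, with 0 and 1 lncRNA reads against 228 and 221. These lists overlap in ubi3, which is in both the ribosomal and the ubiquitin list,. No test of a list was made.

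**Figure D4:**
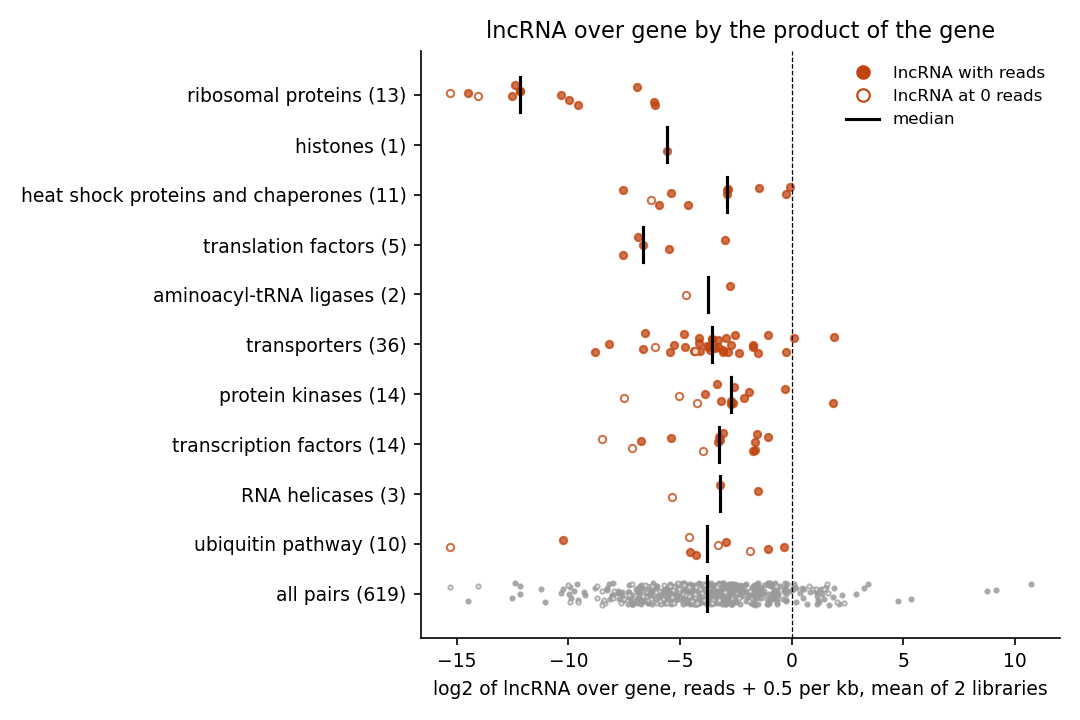
log2 ratio of lncRNA to gene per kb (x axis, mean of 2 libraries, 0.5 added to each count) for pairs grouped by the product of the gene, number of pairs in brackets; open points are lncRNAs at 0 reads, the bar is the median and the dashed line marks equal levels. The 13 ribosomal protein pairs lie lowest, with a median of -12.15, beside -3.81 over all 619 pairs. Their lncRNAs had a median of 4 reads, the same as over all 619, and their genes a median of 16435.

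Detection was then set against distance. The 5′ ends of lncRNA and gene lay a median of 179 nt apart (1 to 498 nt, quartiles 109.5 and 302). The share with at least 10 reads was 38.9% of 131 lncRNAs at 1 to 100 nt (Wilson 95% interval 31.0 to 47.5), 34.4% of 209 at 101 to 200 nt (28.3 to 41.1), 24.4% of 123 at 201 to 300 nt (17.7 to 32.7), 23.6% of 89 at 301 to 400 nt (16.0 to 33.4) and 22.4% of 67 at 401 to 500 nt (14.1 to 33.7). It was thus higher at short distances, with overlapping intervals between neighbouring bins. Numbering went along with this. Among identifiers below 2000 the share was 76.4% at 1 to 100 nt and 38.5% at 401 to 500 nt, while from 2000 upward it was 11.8% and 12.2%. The median log2 ratio to the gene stayed between -4.02 and -3.70 in the 5 bins.

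**Figure D5:**
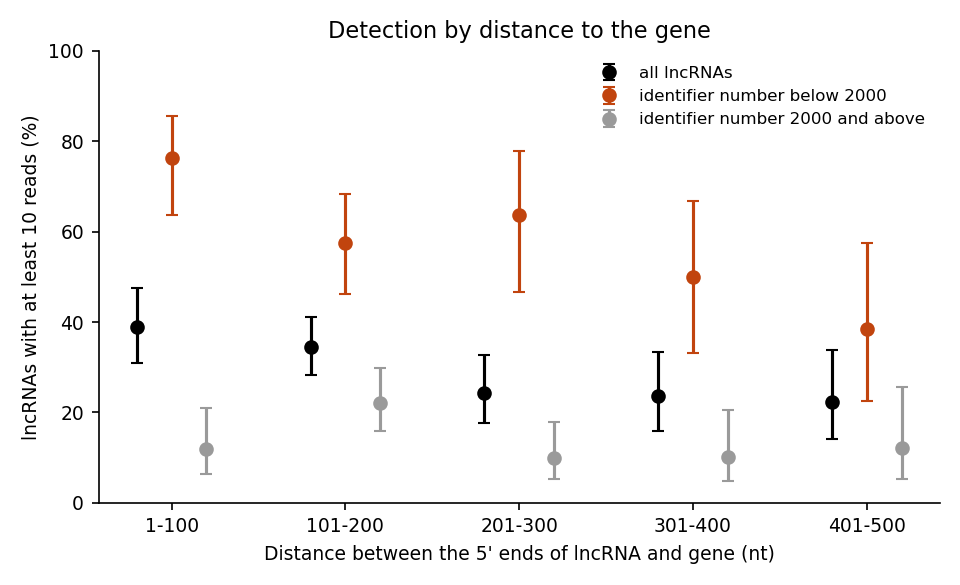
Share of divergent lncRNAs with at least 10 reads in both libraries together (y axis, %) by the distance between the 5′ ends of lncRNA and gene (x axis, nt), for all lncRNAs and by identifier number; bars are Wilson 95% intervals, which cover counting error only. For all lncRNAs the share is 38.9% at 1 to 100 nt and 22.4% at 401 to 500 nt, and the points of identifiers from 2000 upward lie between 10% and 22.1%.

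At the shortest distances, SPNCRNA.3111, 1 nt from prl65, had 4 and 8 reads against 37 and 37. SPNCRNA.1080, 3 nt from snz1, a pyridoxal phosphate synthase gene, had 23 and 34 reads against 4519 and 4613. The log2 ratios per kb of these pairs, at nearly the same distance, were -3.29 ± 0.65 and -7.27 ± 0.37 (SD, n = 2). At the longest distances with at least 10 reads, SPNCRNA.1107 (495 nt from SPCC330.19c) had 3 and 7 reads against 32 and 36, SPNCRNA.6615 at pho84 lies 476 nt away, and SPNCRNA.627 (473 nt from SPAC806.11) had 12 and 7 against 1318 and 1379.

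Downstream, the next coding gene lay on the strand of the lncRNA for 449 lncRNAs and on the other for 170, with at least 10 reads for 30.7% and 30.0%. Among the 40 whose downstream neighbour on the same strand began within 100 nt, 47.5% reached 10 reads (Wilson 95% interval 32.9 to 62.5), against 23.6% of 110 at 101 to 300 nt (16.7 to 32.4), 32.1% of 193 at 301 to 1000 nt (25.9 to 39.0) and 29.2% of 106 farther away (21.4 to 38.5). Where the neighbour within 100 nt lay on the opposite strand, 41.2% of 34 did (26.4 to 57.8), an interval that overlaps that of the same strand. SPNCRNA.1516 beside dnm1, chosen after its values were seen, had 101 and 70 reads and ends 2 nt before a gene with 4792 reads in sum.

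The sequence windows were compared with the same windows elsewhere. TATAAA was found on either strand in the 250 bases upstream of 44.9% of the 613 genes of the pairs and of 44.4% of the 4533 other coding genes with a full window, GTAAACA in 16.0% and 14.6%, ACGCGT in 2.94% and 2.58%, CAGTCACA in 2.45% and 2.63% and ATGACGT in 2.12% and 1.39%. In the 100 bases before a feature's own 5′ end and on its own strand, TATAAA was found for 13.7% of the divergent lncRNAs, 13.1% of the 1005 other SPNCRNA features without coding overlap, 13.1% of the genes of the pairs and 11.1% of the other coding genes. Of the 26 divergent lncRNAs with at least 100 reads, 8 had it (30.8%, Wilson 95% interval 16.5 to 49.99), among them SPNCRNA.901, SPNCRNA.942 and SPNCRNA.5756, against 10.6% of the 189 with at least 10 reads, which include these 26, and 15.1% of the 430 with fewer than 10 (12.0 to 18.8). The share therefore did not follow the level over all lncRNAs. This window and this limit were chosen after the values were seen.

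In the first 250 bases of the feature on its own strand, AATAAA was found in 37.6% of the 535 divergent lncRNAs of that length (33.6 to 41.7), 30.4% of the 818 other SPNCRNA features without coding overlap (27.4 to 33.7), 27.2% of all 5871 other SPNCRNA features (26.0 to 28.3) and 22.3% of 611 genes of the pairs (19.1 to 25.7). TTAAAC was found in 15.7%, 14.7%, 11.3% and 10.3% of the same sets, and its looser form TNAAAC in 43.0%, 41.3%, 39.6% and 37.8%. The median G and C content of these windows was 32.0%, 33.2%, 36.8% and 34.4%. Divergent lncRNAs had the highest shares and the lowest G and C content of the 4 sets. For each motif their Wilson interval overlapped that of the other SPNCRNA features without coding overlap. For TTAAAC the intervals were 12.9 to 19.0 and 12.4 to 17.3, and for TNAAAC 38.9 to 47.2 and 38.0 to 44.7. For AATAAA they overlapped only between 33.6 and 33.7. The shares of TTAAAC and TNAAAC thus do not set the divergent lncRNAs apart from that set. The genes of the pairs had lower shares than all other SPNCRNA features at a lower G and C content. The part of base composition in the shares was not tested.

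The libraries were compared last, feature by feature, with a two-sided exact binomial test over all 6752 features with at least 10 reads in sum (Benjamini-Hochberg adjusted p below 0.05). With 1 group, it tells libraries apart rather than conditions. Of the 189 divergent lncRNAs tested, 7 differed (3.70%), where 4.19% of all features tested were called, so the share is near that of the whole table. SPNCRNA.901, SPNCRNA.942, SPNCRNA.491, SPNCRNA.5756, SPNCRNA.3054 and SPNCRNA.1490 were higher in replicate 1, by 0.27, 0.17, 0.13, 0.36, 0.40 and 0.39 on the log2 scale (exact binomial test, adjusted p = 3.69e-77, 2.97e-16, 1.06e-06, 2.43e-06, 0.000148 and 0.00195). SPNCRNA.1370 was lower in replicate 1, by a log2 ratio of -0.37 (exact binomial test, adjusted p = 0.0279), and the call was lost with other scalings, where the adjusted p was 0.109 (TMM) and 0.0657 (size factors of DESeq2). They are the 7 most abundant divergent lncRNAs, whose counts give the smallest counting error, and none differed by 2-fold. None of their 7 genes was called (exact binomial test, adjusted p between 0.399 and 1). The genes beside SPNCRNA.901, SPNCRNA.942, SPNCRNA.491 and SPNCRNA.5756 had far fewer reads than these lncRNAs. Shifts as small as those of the lncRNAs could hardly be called in them, so the lack of a call there shows no contrast. Over the 189 lncRNAs, log2(CPM + 1) of the libraries correlated with Pearson's r = 0.984 and the counts with Spearman's rho = 0.848, across lncRNAs that are not independent replicates.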

How the data were processed

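Total RNA of 2 biological replicates of vegetative h- cells was depleted of rRNA, polyadenylated in vitro and sequenced on nanopores (RNA004 chemistry). Base calling by the authors used dorado with its super accuracy model, and minimap2 with the splice preset mapped the reads. Neither the build of the genome nor the counting tool is given in the sources used here. The authors deposited an unnormalized count for each annotated feature. These deposited values, handled as estimated counts, were already whole and rounding altered none. The header holds an extra empty cell, so the columns were aligned by content. Coordinates and sequences are those of RefSeq ASM294v3.

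CPM used all features of a library as its total, and depth was 12871729 and 12579850 counts. Overlapping features of 1 strand can each count the same read, which touches 16 of the 619 lncRNAs and the gene in 53 of the pairs. Reads kept their strand: of 182 SPNCRNA features wholly inside a strongly covered gene on the opposite strand, all had under 1 read for each 100 of that gene. Lengths are spans, introns included. Pairs were compared as log2 of (reads + 0.5) per kb. Between libraries, the two-sided exact binomial test (scipy 1.17.1) with Benjamini-Hochberg adjustment was applied to features with at least 10 reads in sum. Its code was checked on simulated counts with 2-fold changes and counting error only. That check does not cover variation between biological replicates or shifts under 2-fold. edgeR 4.0.16 and DESeq2 1.42.0 gave alternative scalings only. Intervals are Wilson or Clopper-Pearson at 95% and cover counting error only. Replicates are biological by their labels, but the binomial p-values measure only counting error between these 2 libraries.

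Named lncRNAs are the 10 highest in CPM, the 5 highest and 5 lowest ratios among pairs with at least 100 reads, those that differ between libraries, the 3 shortest and 3 longest distances at 10 reads, and those of the product lists, summarised by leading members; 1 pair of the shortest distances is not reported here. The members and the lists were chosen with earlier results of these data known. Motifs and alternatives were listed with the design; the split of identifiers at 2000, the windows of 100 bases and the alternative without 3 snoRNA features were added after the data were seen.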

Additional observations from a re-analysis of the deposited data

How the results depend on the processing

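No paired analysis was possible because there is only 1 group. The count of lncRNAs with at least 10 reads (189) was 296 at 5 reads and 26 at 100 reads. With a library left out, 201 to 205 were counted, but at a lower read limit. At the same limit a single library cannot give more lncRNAs than the sum of both, so these counts are not comparable with 189. The median level (0.158 CPM) was 0.412 CPM on totals without rRNA, 0.6004 on coding totals, 0.866 over lncRNAs with at least 10 reads, 0.196 within 250 nt, and 0.155 to 0.159 in single libraries. The lncRNA was below its gene in 160 pairs when both needed 10 reads, of 188 such pairs, and in 576 to 577 pairs in single libraries. The median log2 ratio (-3.81 in either library alone) was -5.95 per feature, -3.78 within 250 nt, -2.54 with 10 reads in both features, -3.85 without same-strand overlaps, -4.53 and -2.05 with pseudocounts of 0.1 and 5 and -3.82 without the 3 lncRNAs that hold or overlap a snoRNA (SPNCRNA.901, SPNCRNA.530 and SPNCRNA.1483), an alternative chosen after seeing the data. The rank correlation of lncRNA and gene levels (0.172) was 0.199 per feature, 0.137 within 250 nt, 0.069 with 10 reads in both, 0.189 without overlaps, 0.102 with a pseudocount of 5 and 0.147 to 0.168 in single libraries. No lncRNA met a limit of 2-fold (0, where 7 passed the exact binomial test, 18 had an unadjusted p under 0.05, and 6 passed with TMM or DESeq2 factors). The 18 were 9.52% of the 189 lncRNAs tested, below the 13.5% of all 6752 features tested. Of all features tested, 4.64% passed with TMM and 4.13% with DESeq2 factors. Fewer lncRNAs or pairs enter where a limit is stricter; otherwise the cause was not tested. None of these summary values changed direction, but counted per feature, 12 of the 28 pairs with the lncRNA above its gene per kb turned to below, 11 of them with at least 10 lncRNA reads. Depth limits every lncRNA under 10 reads, 430 of 619, whose ratio rests on the pseudocount.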
